A study of Sus scrofa with 12 samples.

Results

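Subcutaneous fat from the middle of the back of Guangdong small-eared pigs (GS), an indigenous breed of southern China, was compared between 80 d and 9 d of age. The comparison rests on 3 libraries at 80 d (GS_80d) and 3 libraries at 9 d (GS_9d), which are 6 of the 12 RNA-seq libraries of the study, chosen by their breed and age labels. The other 6 libraries are back fat of Yorkshire pigs (YK), a commercial breed, at 80 d (YK_80d) and 9 d (YK_9d). They entered the model to estimate the spread, and also the filter on low counts, the scaling and the mean level used to choose genes for naming. They were otherwise used only to ask whether the age difference itself differed between the breeds. All animals are labelled wild type, and no treatment, sex, diet or litter is named in the labels. The labels enter adipocyte as the cell type, but the material is whole adipose tissue. They do not say that the 3 libraries of a group came from separate animals, so the p-values gauge only how far these samples scatter, and that scatter may be technical. In bulk tissue, fewer cells of a type and less RNA per cell cannot be told apart.

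Back fat of the pig grows fast after birth, as precursor cells become adipocytes and adipocytes fill with triacylglycerol. In the pig, fat tissue is a major site where new fatty acids are made. ATP citrate lyase (ACLY) supplies cytosolic acetyl-CoA, acetyl-CoA carboxylase (ACACA) and fatty acid synthase (FASN) build the chain, malic enzyme (ME1) supplies NADPH, and stearoyl-CoA desaturase (SCD) and the elongase ELOVL6 finish it. Perinatal tissues also express a group of growth genes, several of them imprinted, such as DLK1 and MEST, that are known to be switched off as mammals grow.

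The deposited values of the 6 libraries summed to 52112636 to 58836088 per library. The smallest values rise in steps of 3.74, and if a step is 1 fragment, an inference that no source states, the libraries held 13933860 to 15731574 fragments. The adipocyte genes ADIPOQ (adiponectin) and FABP4 (a fatty acid carrier) stood at 6977 to 8672 and 5734 to 6533 CPM (counts scaled to a common library size) in GS_80d, and at 5951 to 11758 and 4046 to 9868 CPM in GS_9d. The GS_80d libraries resembled each other more (Spearman coefficients across genes of 0.976 to 0.980) than the GS_9d libraries did (0.950 to 0.964). Skeletal muscle transcripts took 0.00492% to 0.00573% of each GS_80d library. In GS_9d replicates 1 and 2 they took 0.00497% and 0.0144%, but in GS_9d replicate 3 they took 1.64%. Values below are listed in the order of replicates 1, 2 and 3. A log2 difference is GS_80d minus GS_9d from the fitted model, given with its standard error (SE), and a gene was said to change when its adjusted p was below 0.05 in edgeR's quasi-likelihood test with Benjamini-Hochberg adjustment over 15425 genes.

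Of the 15425 genes, 409 (2.65%) changed with age in GS back fat. At 80 d 213 genes (1.38%) were higher and 196 (1.27%) were lower than at 9 d. The groups did not overlap for any of the 409, but they did not overlap for 33.7% of all genes tested either. An unadjusted p under 0.05 was found for 3079 genes (20%). Counts within gene lists below are to be read beside these shares of all genes tested. The shares are 2.65% called (1.38% higher, 1.27% lower) and 20% at an unadjusted p under 0.05. The median size of the change among the 409 was 1.51 on the log2 scale, and 357 of them differed by more than 1. The count fell whichever GS library was left out. Leaving out any of the 6 GS libraries cut the count to between 78, without GS_9d replicate 1, and 122, without GS_9d replicate 3. Fits without a YK library gave 357 to 532. A fit without a GS library holds fewer than 3 libraries in that age group, and whether calls were lost for that reason was not tested. No sign turned among the 409 in those 6 fits, and 43 genes, 23 higher and 20 lower, were called in all of them. When the 6 GS libraries were fitted alone, 1055 genes passed, among them 391 of the 409. Skeletal muscle transcripts were also seen in YK_80d replicate 3 and YK_9d replicate 1, and without these and GS_9d replicate 3 150 genes passed (86 higher, 64 lower).

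**Figure D1:**
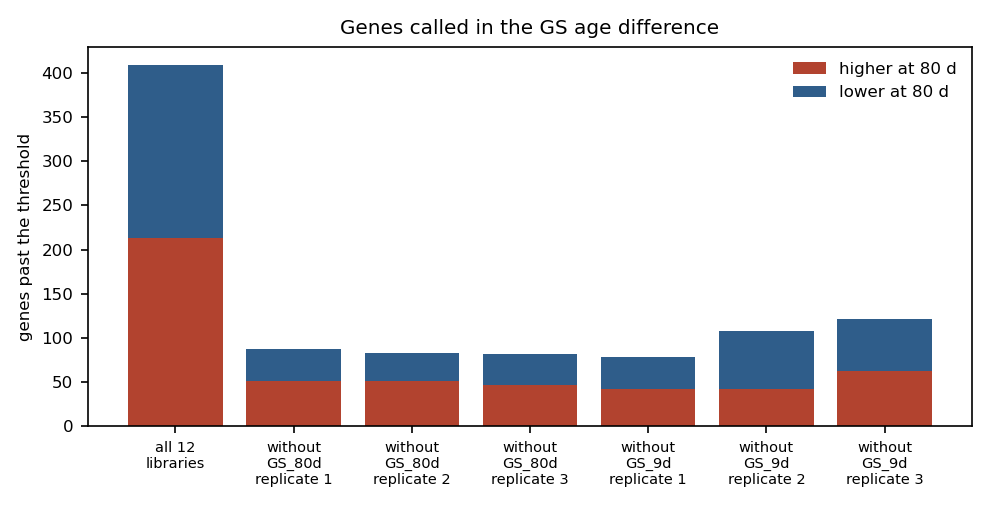
Number of genes past the threshold in the GS age difference (vertical axis), split into higher and lower at 80 d, with all 12 libraries and after leaving out each GS library in turn. The bar of 409 genes drops to between 78 and 122 whichever GS library is left out.

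Enzymes that make fatty acids were among the genes that rose by 80 d. Of 20 tested genes of fatty acid synthesis 5 rose, namely SCD, FASN, ACACA, ME1 and ACLY, 0 fell and 15 had positive differences. The median log2 difference was 0.72, against -0.0046 over all genes tested, of which 1.38% rose. SCD, which puts the double bond into stearate, stood at 6414, 1665 and 3990.1 CPM in GS_80d, against 25.6, 37.9 and 94.9 CPM in GS_9d. Its log2 difference of 6.25 ± 0.93 (adjusted p = 0.0117) was the largest increase among the genes named here, and the lowest GS_80d library lay far above the highest GS_9d library. The GS_80d libraries were themselves uneven, with replicate 2 lowest for SCD and also for FASN.

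FASN stood at 8393, 2398 and 5972 CPM in GS_80d, against 691, 694 and 749 CPM in GS_9d (log2 difference 2.97 ± 0.55, adjusted p = 0.0186). ACACA, the enzyme that makes malonyl-CoA, stood at 464, 413 and 491 CPM in GS_80d, against 44.1, 147 and 47.9 CPM in GS_9d (2.52 ± 0.41, adjusted p = 0.0126), with GS_9d replicate 2 above the other 9 d libraries. ACLY stood at 407, 318 and 441 CPM in GS_80d, against 82.3, 101 and 88.2 CPM in GS_9d (2.10 ± 0.24, adjusted p = 0.00285). ME1 stood at 564, 280.4 and 382 CPM in GS_80d, against 79.1, 107 and 89.4 CPM in GS_9d (2.15 ± 0.42, adjusted p = 0.0212). In all 5 genes every GS_80d library lay above every GS_9d library. ELOVL6, the elongase that extends palmitate, showed the same separation at 1749, 1346 and 1707 CPM in GS_80d, against 268, 448 and 350.1 CPM in GS_9d, but its difference of 2.17 ± 0.53 missed the threshold (adjusted p = 0.0539). ELOVL6 passed in 7 of 22 alternatives, including DESeq2 (adjusted p = 0.000502), the 6 GS libraries alone (0.00903), the fit without YK_9d replicate 1 (0.00762) and that without the 3 libraries with muscle transcripts (0.0249).

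ACLY and ACACA remained past the threshold whichever library was left out. SCD lost the call without either of GS_9d replicates 1 and 2 (adjusted p up to 0.0506, log2 difference between 5.77 and 7.01 over all alternatives). FASN and ME1 each lost it in 5 of the 6 fits that left out a GS library, all but the fit without GS_80d replicate 2 (adjusted p up to 0.0753 for FASN and 0.0787 for ME1). The group count was accordingly 2 to 5 in those fits, lowest without GS_9d replicate 1 or GS_9d replicate 2, and 6 without the 3 libraries with muscle transcripts. The pentose phosphate enzyme PGD, which also makes NADPH, had a log2 difference of 0.68 ± 0.28 (adjusted p = 0.207). The desaturases FADS1 and FADS2, which act on polyunsaturated fatty acids, had 0.35 ± 0.31 and 0.50 ± 0.26 (adjusted p = 0.567 and 0.312).

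**Figure D2:**
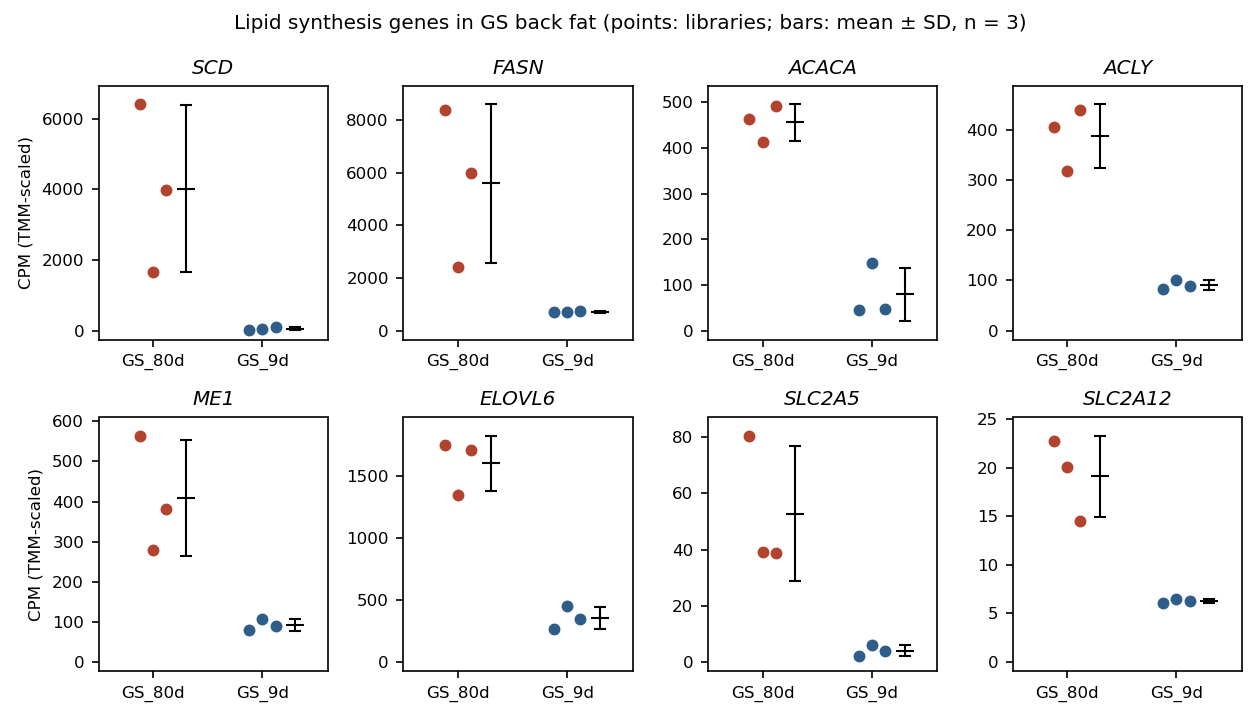
TMM-scaled CPM (vertical axes, linear, each gene with its own scale) of 8 genes of lipid synthesis and sugar supply in the 3 GS_80d and 3 GS_9d libraries, with mean ± SD beside the points. In every panel the 3 GS_80d points lie above the 3 GS_9d points, from 318 to 441 against 82.3 to 101 CPM for ACLY. ELOVL6 alone of the 8 genes missed the threshold (adjusted p = 0.0539).

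The supply side of lipid synthesis changed at a few genes. SLC2A5, the fructose transporter, stood at 80.5, 39.0 and 38.7 CPM in GS_80d, against 2.06, 6.09 and 4.02 CPM in GS_9d (3.7 ± 0.52, adjusted p = 0.00843). SLC2A12, another sugar transporter, stood at 22.7, 20.1 and 14.5 CPM in GS_80d, against 6.09, 6.53 and 6.24 CPM in GS_9d (1.6 ± 0.30, adjusted p = 0.0178). These were the 2 that rose among 29 genes of glucose transport and glycolysis, 0 of which fell, and the median of that list was -0.08. Over all genes tested 1.38% rose. GYS2, the glycogen synthase isoform best known from liver, was at 43.3, 56.2 and 68.2 CPM in GS_80d, against 0.768, 2.16 and 1.65 CPM in GS_9d (5.19 ± 0.93, adjusted p = 0.0199). SLC2A5 remained past the threshold in every alternative run, whereas SLC2A12 lost the call in 5 (adjusted p up to 0.0763) and GYS2 in 6 (up to 0.0771) of the 6 fits without a GS library. SLC2A12 kept it only without GS_80d replicate 3.

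APOE, an apolipoprotein of lipid transport, fell to 1445, 1756 and 1465 CPM in GS_80d, against 3858, 5715 and 3942 CPM in GS_9d (-1.53 ± 0.28, adjusted p = 0.0168), with groups that did not overlap. It was the 1 gene called among 19 of fatty acid uptake and handling, and it lost the call without any of the GS_80d libraries or without GS_9d replicate 2 (adjusted p up to 0.0756).

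Genes that store and release triacylglycerol held calls in both directions. Of 13 triacylglycerol synthesis genes 1 rose and 2 fell, with a median of -0.26, where 2.65% of all genes tested were called. GPAM, the mitochondrial acyltransferase that starts glycerolipid synthesis, rose to 16.7, 15.3 and 16.6 CPM in GS_80d, against 7.45, 3.74 and 5.09 CPM in GS_9d (1.58 ± 0.36, adjusted p = 0.0406). GPAT3, an acyltransferase of the endoplasmic reticulum for the same step, fell to 10.5, 15.5 and 9.32 CPM in GS_80d, against 25.6, 34.8 and 29.9 CPM in GS_9d (-1.35 ± 0.32, adjusted p = 0.0470). AGPAT4, which acts on lysophosphatidic acid, fell to 2.43, 3.47 and 4.35 CPM in GS_80d, against 10.7, 7.55 and 6.85 CPM in GS_9d (-1.29 ± 0.29, adjusted p = 0.0403). All 3 calls were lost when any GS library was left out (adjusted p up to 0.143, 0.177 and 0.163). DGAT2, which makes the final bond, was at 1257, 999 and 934 CPM in GS_80d, against 618, 1938 and 1317 CPM in GS_9d (-0.28 ± 0.47, adjusted p = 0.785), and its groups overlapped.

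Among 13 genes of lipolysis and its control, PNPLA3, a lipid droplet acylhydrolase, rose to 16.4, 37.9 and 23.9 CPM in GS_80d, against 2.13, 2.39 and 1.61 CPM in GS_9d (3.67 ± 0.84, adjusted p = 0.0434). Its call was lost when any GS library was left out (adjusted p up to 0.132). The lipases PNPLA2 and LIPE had log2 differences of -0.18 ± 0.26 and 0.13 ± 0.29 (adjusted p = 0.746 and 0.848). Of 13 lipid droplet proteins 0 passed, with 1 at an unadjusted p under 0.05, and PLIN1, the main droplet coat of adipocytes, stood at 2079, 2069 and 2069 CPM in GS_80d, against 1299.9, 2077 and 1235 CPM in GS_9d (0.43 ± 0.32, adjusted p = 0.486). By DESeq2 1 of those 13 genes fell.

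The main regulators of the adipocyte state did not pass the test. PPARG, the master regulator of adipocyte differentiation, stood at 308, 344 and 307 CPM in GS_80d, against 378, 475 and 283 CPM in GS_9d (-0.24 ± 0.27, adjusted p = 0.672). CEBPA, its partner, stood at 160.1, 171 and 172 CPM in GS_80d, against 58.8, 119 and 106 CPM in GS_9d, without overlap of the groups (0.83 ± 0.30, adjusted p = 0.155). SREBF1, which drives lipogenic genes, stood at 122, 80.9 and 116 CPM in GS_80d, against 85.5, 154 and 131 CPM in GS_9d (-0.22 ± 0.31, adjusted p = 0.751). Counts of calls were 0 for 18 adipogenic transcription factors and 0 for 10 lipogenic regulators, with medians of 0.17 and 0.10. At an unadjusted p under 0.05 there were 5 of the 18 and 3 of the 10, against 20% of all genes tested. DESeq2 called 3 and 2. The regulators NR1H3, a liver X receptor, and MLXIPL, a glucose-responsive factor, had differences of -1.42 ± 0.48 and 1.22 ± 0.64 (adjusted p = 0.130 and 0.314).

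Mature adipocyte genes changed at 2 of 21 members, both upward in the reported fit, where 1.38% of all genes tested rose. These were GPAM and LGALS12, a galectin of lipid droplets, which stood at 71.7, 170.1 and 220.4 CPM in GS_80d, against 18.4, 62.3 and 33.5 CPM in GS_9d (2.02 ± 0.45, adjusted p = 0.0373). LGALS12 kept the call without GS_80d replicate 1 or GS_9d replicate 2 and lost it without any other GS library (adjusted p up to 0.127, and 0.135 over all alternatives). In the fit of the 6 GS libraries alone 1 member of the list rose and 1 fell. By DESeq2, by limma-voom and without YK_9d replicate 1 or 2, 1 member fell as well. Without the 3 libraries with muscle transcripts the list held 0 calls. ADIPOQ differed by -0.04 ± 0.41 (adjusted p = 0.975), FABP4 by -0.24 ± 0.39 (adjusted p = 0.782) and lipoprotein lipase (LPL) by 0.10 ± 0.35 (adjusted p = 0.905). The signs of these 3 small differences depended on single libraries, since ADIPOQ turned to 0.077 without GS_80d replicate 1 and to 0.31 without GS_9d replicate 2, FABP4 to 0.072 without GS_9d replicate 2, and LPL turned to -0.092 without GS_9d replicate 1.

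Among secreted products of the tissue, PLAT, tissue plasminogen activator, rose to 56.7, 65.5 and 71.9 CPM in GS_80d, against 24.1, 18.9 and 23.8 CPM in GS_9d (1.54 ± 0.20, adjusted p = 0.00742), and remained past the threshold whichever library was left out. PLAT was chosen for naming after its values were seen, as were HPGD, CYP7B1, TMEM98, FCN2, PXDN, PTH1R, NFAT5 and RCAN1 below, from the 43 genes called in every fit without a GS library. LEP (leptin) ranged widely within both groups, at 56.3, 155 and 69.8 CPM in GS_80d, against 38.2, 89.3 and 12.6 CPM in GS_9d, and its difference of 1.01 ± 0.85 was not called (adjusted p = 0.553).

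Oxidative genes showed few calls, where 2.65% of all genes tested were called. Of 17 genes of mitochondrial fatty acid oxidation and 15 thermogenic genes 0 passed, and DESeq2 called 1 and 0. An unadjusted p under 0.05 was found for 4 and 3 of them, against 20% of all genes tested. UCP3, an uncoupling protein, stood at 118, 96.7 and 121 CPM in GS_80d, against 21.8, 50.6 and 59.3 CPM in GS_9d (1.35 ± 0.50, adjusted p = 0.162), and its groups did not overlap. IDH2, the mitochondrial NADP-dependent isocitrate dehydrogenase, was the 1 of 22 tricarboxylic acid cycle genes that changed, and it fell to 28.6, 40.1 and 44.6 CPM in GS_80d, against 73.0, 80.2 and 109 CPM in GS_9d (-1.21 ± 0.27, adjusted p = 0.0370). The call was lost when any GS library was left out (adjusted p up to 0.147). Of 53 nuclear genes of the respiratory chain 47 had negative differences and 0 passed, with a median of -0.33. An unadjusted p under 0.05 was found for 10 of the 53, against 20% of all genes tested. DESeq2 called 1 of them.

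**Figure D3:**
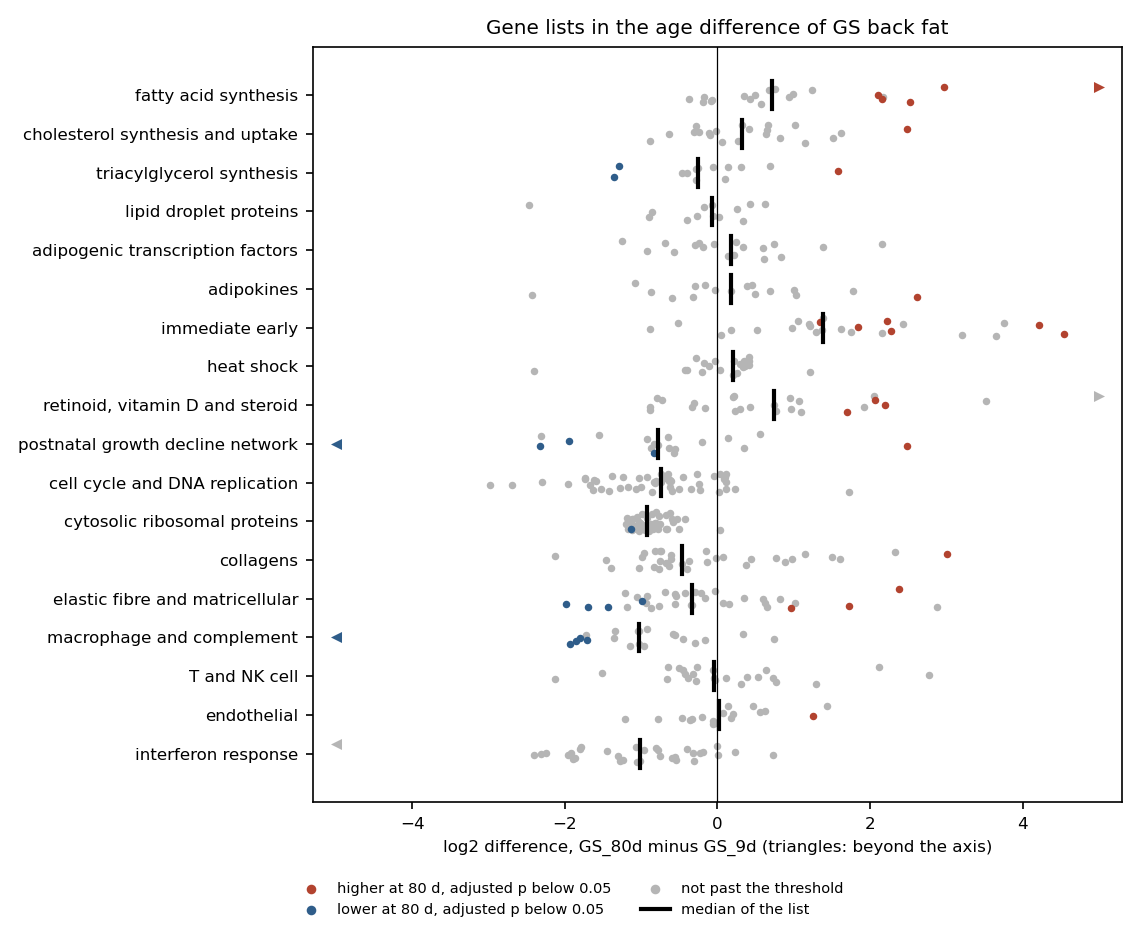
Log2 differences (horizontal axis, GS_80d minus GS_9d) of the tested members of 18 gene lists, with genes past the threshold in colour and the median of each list as a bar. The medians ran from 1.38 for immediate early genes to -1.03 for macrophage genes, and triangles mark members beyond 5 on either side.

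Several growth genes of early life fell. Of 19 tested genes of the postnatal growth decline list 4 fell, DLK1, IGF2BP3, MEST and GRB10, and 1 rose. The median was -0.78 and 15 of the 19 differences were negative, where 1.27% of all genes tested fell. MEST, an imprinted gene of the hydrolase family linked to adipocyte expansion in mice, stood at 10.3, 10.8 and 9.77 CPM in GS_80d, against 31.1, 45.3 and 41.9 CPM in GS_9d (-1.94 ± 0.25, adjusted p = 0.00742). IGF2BP3, an RNA-binding protein of fetal tissue, stood at 1.61, 1.65 and 2.38 CPM in GS_80d, against 11.2, 8.95 and 8.09 CPM in GS_9d (-2.32 ± 0.34, adjusted p = 0.00868). Every GS_80d library lay below every GS_9d library for both, and both remained past the threshold in every alternative.

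DLK1, the imprinted preadipocyte factor that holds back adipocyte differentiation, was at 0 in all 3 GS_80d libraries and at 10.7, 5.13 and 17.6 CPM in GS_9d. Against a floor of 3 such inferred fragments over the GS_80d group (0.0631 CPM) it was at least 178-fold lower (adjusted p = 0.0381). The floor covers counting error only. The call was lost when any GS library was left out (adjusted p up to 0.116), although the remaining GS_80d libraries stayed at 0. GRB10, an imprinted adaptor that dampens insulin and IGF receptor signalling, stood at 72.3, 60.2 and 48.1 CPM in GS_80d, against 116, 98.1 and 108 CPM in GS_9d (-0.83 ± 0.19, adjusted p = 0.0434), and its call was likewise lost in each of those 6 fits (up to 0.167). Among 16 imprinted genes 3 fell (DLK1, MEST and GRB10) and 1 rose, DIRAS3, a Ras-family growth suppressor in human tissues, at 1.47, 2.79 and 2.60 CPM in GS_80d, against 0.244, 0.364 and 0.484 CPM in GS_9d (2.64 ± 0.59, adjusted p = 0.0370). DIRAS3 lost its call in each of those fits as well (up to 0.118).

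**Figure D4:**
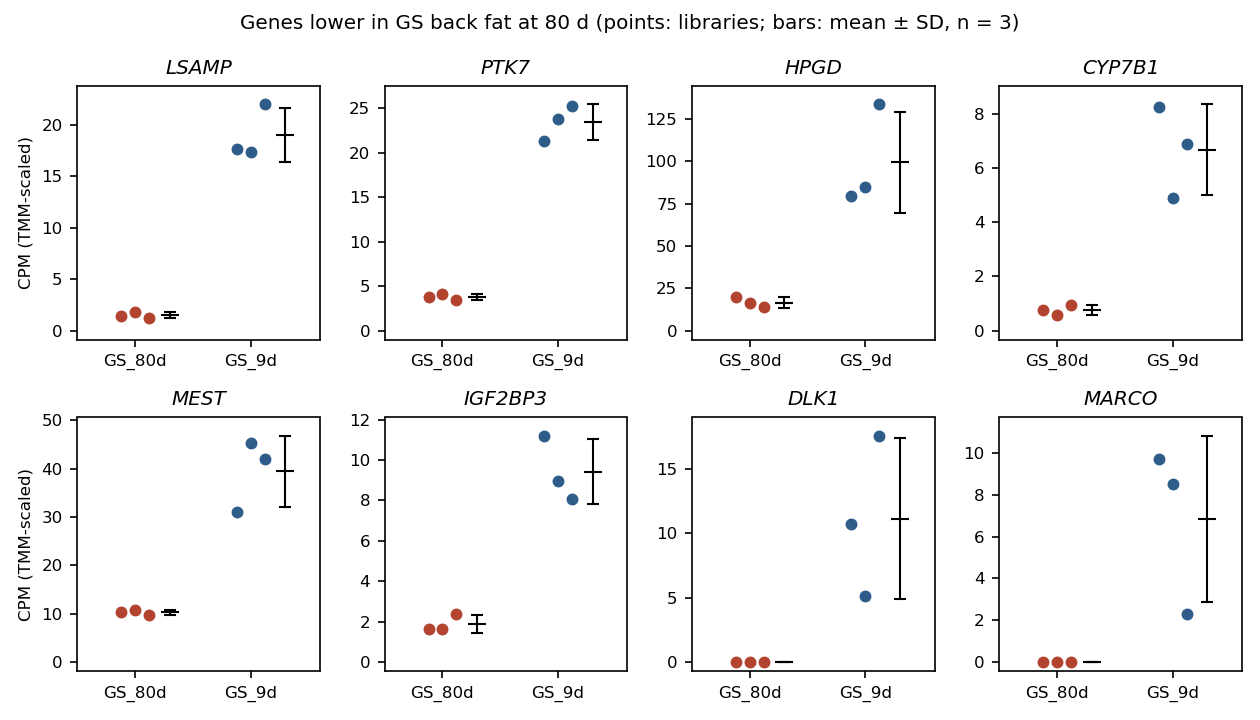
TMM-scaled CPM (vertical axes, linear, each gene with its own scale) of 8 genes that were lower at 80 d, in the 3 GS_80d and 3 GS_9d libraries, with mean ± SD beside the points. LSAMP and PTK7 lie in tight groups, at 1.21 to 1.79 against 17.3 to 22.03 CPM for LSAMP, and DLK1 and MARCO are at 0 in every GS_80d library.

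Of 22 IGF and insulin signalling genes 1 changed, where 2.65% of all genes tested did. IGFBP5, an IGF-binding protein of stromal cells, fell to 236, 215 and 244 CPM in GS_80d, against 1441, 650.1 and 1117 CPM in GS_9d (-2.21 ± 0.44, adjusted p = 0.0234) and kept its call only without GS_9d replicate 2 among the 6 fits without a GS library (up to 0.101 in the others). GHR, the growth hormone receptor, stood at 408, 379 and 317 CPM in GS_80d, against 193, 229 and 199 CPM in GS_9d (0.83 ± 0.33, adjusted p = 0.190), and passed when the 6 GS libraries were fitted alone (adjusted p = 0.0347). IGF1 and its receptor IGF1R differed by -0.31 ± 0.35 and 0.17 ± 0.29 (adjusted p = 0.664 and 0.800). Among 49 cell cycle and DNA replication genes 40 had negative differences and the median was -0.74, but 0 passed. An unadjusted p under 0.05 was found for 8 of the 49, against 20% of all genes tested. DESeq2 called 1 higher and 2 lower. CDK1, the mitotic kinase, stood at 0.617, 1.06 and 1.91 CPM in GS_80d, against 3.49, 2.03 and 3.87 CPM in GS_9d (-1.39 ± 0.73, adjusted p = 0.315), and TOP2A, topoisomerase of dividing cells, at 2.63, 3.20 and 8.16 CPM in GS_80d, against 13.04, 7.13 and 24.4 CPM in GS_9d (-1.67 ± 0.78, adjusted p = 0.263).

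Cytosolic ribosomal protein genes had mostly negative differences, of which 1 passed. Of the 45 tested 44 had negative differences, the median was -0.92 and 44 had groups that did not overlap, against 33.7% of all genes. An unadjusted p under 0.05 was found for 36 of the 45, against 20% of all genes tested. RPL28 alone was called, at 407, 413 and 389 CPM in GS_80d, against 717, 1075 and 854 CPM in GS_9d (-1.13 ± 0.26, adjusted p = 0.0427), and lost the call when any GS library was left out (adjusted p up to 0.143). Together the 45 genes took 3.04% to 3.4% of the counts in GS_80d libraries and 4.54% to 6.49% in GS_9d libraries. The count of calls was 24 in the fit of the 6 GS libraries alone and 25 by DESeq2, 13 without YK_9d replicate 3 and 0 without YK_9d replicate 1. Counts are relative, so these values show a smaller share of the library, not a smaller amount per cell.

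Cell-surface and signalling genes were among the decreases called in every fit. LSAMP, a neural cell adhesion protein, stood at 1.42, 1.79 and 1.21 CPM in GS_80d, against 17.7, 17.3 and 22.03 CPM in GS_9d (-3.69 ± 0.38, adjusted p = 0.00249). PTK7, a pseudokinase co-receptor of Wnt signalling, stood at 3.79, 4.05 and 3.41 CPM in GS_80d, against 21.3, 23.8 and 25.3 CPM in GS_9d (-2.64 ± 0.26, adjusted p = 0.00249). Within each age these values were tight, and both genes remained past the threshold in every alternative. FZD2, a Frizzled receptor for Wnt ligands, fell to 5.70, 2.93 and 3.995 CPM in GS_80d, against 19.03, 12.6 and 15.4 CPM in GS_9d (-1.90 ± 0.38, adjusted p = 0.0225), whereas LRP6, a Wnt co-receptor, rose to 58.3, 78.2 and 54.0 CPM in GS_80d, against 20.1, 16.4 and 18.98 CPM in GS_9d (1.78 ± 0.26, adjusted p = 0.00868).

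SFRP1, a secreted Wnt antagonist of adipose stroma, rose to 579, 555 and 633 CPM in GS_80d, against 156, 261 and 148 CPM in GS_9d (1.65 ± 0.35, adjusted p = 0.0338). The 36 tested Wnt pathway genes thus held 2 that rose and 1 that fell, with a median of 0.19. LRP6 kept its call in every alternative, FZD2 lost it when any GS library was left out (adjusted p up to 0.0997) and SFRP1 in all such fits but the one without GS_9d replicate 2 (up to 0.103). Of 44 TGF-beta and BMP genes 1 rose, the ligand GDF11, at 27.7, 47.3 and 30.7 CPM in GS_80d, against 14.3, 15.9 and 15.7 CPM in GS_9d (1.20 ± 0.25, adjusted p = 0.0310). Of 19 hedgehog and Notch genes 1 rose, the Notch target HEYL, at 6.79, 9.93 and 7.19 CPM in GS_80d, against 2.65, 2.09 and 3.03 CPM in GS_9d (1.62 ± 0.32, adjusted p = 0.0213). GDF11 and HEYL lost their calls when any GS library was left out (adjusted p up to 0.117 and 0.0926). Over all genes tested 1.38% rose and 1.27% fell.

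HPGD, the enzyme that inactivates prostaglandins, fell to 19.6, 16.3 and 13.6 CPM in GS_80d, against 79.6, 85.0 and 134 CPM in GS_9d (-2.59 ± 0.28, adjusted p = 0.00285). CYP7B1, which hydroxylates oxysterols, fell to 0.744, 0.570 and 0.940 CPM in GS_80d, against 8.26, 4.90 and 6.89 CPM in GS_9d (-3.15 ± 0.45, adjusted p = 0.00843). TMEM98, a membrane protein, fell to 4.57, 6.95 and 5.42 CPM in GS_80d, against 29.0, 45.6 and 28.5 CPM in GS_9d (-2.60 ± 0.30, adjusted p = 0.00285). These 3 genes were picked from the 43 called in every fit without a GS library, so the choice itself fixed that they kept their calls there. Their groups did not overlap, as was so for all 409 genes called. PTH1R, the receptor of parathyroid hormone and its related peptide, was likewise lower, at 13.1, 15.9 and 12.96 CPM in GS_80d, against 44.9, 36.7 and 37.9 CPM in GS_9d (-1.51 ± 0.21, adjusted p = 0.00843). Among the genes that rose and were called in each fit without a GS library was NFAT5, a transcription factor of the osmotic stress response, at 50.8, 47.6 and 53.5 CPM in GS_80d, against 14.7, 9.50 and 9.97 CPM in GS_9d (2.15 ± 0.34, adjusted p = 0.0118). RCAN1, an inhibitor of calcineurin, was at 63.7, 63.4 and 121 CPM in GS_80d, against 29.2, 27.4 and 23.5 CPM in GS_9d (1.63 ± 0.27, adjusted p = 0.0139), and it lost its call without the 3 libraries with muscle transcripts (adjusted p = 0.0625).

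Other large increases included FRRS1L, an auxiliary protein of glutamate receptors, at 34.4, 37.5 and 28.9 CPM in GS_80d, against 0.768, 1.11 and 0.735 CPM in GS_9d (5.27 ± 0.81, adjusted p = 0.0118). It lost its call only without GS_9d replicate 1 (adjusted p = 0.0579). CYP2A19, a pig cytochrome P450 known for skatole metabolism in liver, was at 289, 285 and 122 CPM in GS_80d, against 27.8, 23.6 and 19.1 CPM in GS_9d (3.30 ± 0.61, adjusted p = 0.0200). RYR2, a calcium release channel, had a log2 difference of 3.06 ± 0.59 (adjusted p = 0.0201). CFI, a serine protease that degrades complement fragments, had 3.05 ± 0.51 (adjusted p = 0.0139). Without 1 GS library, CYP2A19 lost its call in 5 of 6 fits, RYR2 in 6 and CFI in 3 (adjusted p up to 0.0837, 0.0856 and 0.0540). CYP2A19 kept it only without GS_80d replicate 3, and CFI without GS_80d replicate 1, GS_80d replicate 3 or GS_9d replicate 1.

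Among the remaining large decreases, VWCE, a von Willebrand factor domain protein, stood at 7.38, 6.83 and 4.30 CPM in GS_80d, against 47.1, 21.4 and 50.5 CPM in GS_9d (-2.68 ± 0.40, adjusted p = 0.00921) and remained past the threshold in every alternative. ADAM7, of a metalloprotease-like family, had a log2 difference of -3.12 ± 0.58 (adjusted p = 0.0200), IL13RA2, a decoy receptor for interleukin 13, had -2.79 ± 0.62 (adjusted p = 0.0403), and HAL, histidine ammonia-lyase, had -2.97 ± 0.69 (adjusted p = 0.0434). XPNPEP2, a membrane aminopeptidase, and BEX1, a brain-expressed adaptor, had -2.81 ± 0.60 and -2.68 ± 0.60 (adjusted p = 0.0326 and 0.0380). Each of these 5 lost its call in 5 or 6 of the 6 fits without a GS library (adjusted p up to 0.162). The fits that kept a call were those without GS_9d replicate 1 for ADAM7, GS_80d replicate 3 for IL13RA2, GS_80d replicate 1 for HAL and GS_9d replicate 2 for XPNPEP2.

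Matrix genes moved in both directions. Among 33 collagens 1 rose, COL8A1, a short-chain collagen of vessel walls, at 54.2, 55.3 and 118 CPM in GS_80d, against 9.50, 11.9 and 6.80 CPM in GS_9d (3.01 ± 0.52, adjusted p = 0.0168). It kept its call only without GS_80d replicate 1 or GS_80d replicate 2 (adjusted p up to 0.0626 without any other GS library). The median of the collagens was -0.46, and 1.38% of all genes tested rose. The fibrillar collagens COL1A1 and COL3A1, the main fibre proteins of stroma, differed by -0.74 ± 0.37 and -1.03 ± 0.43 (adjusted p = 0.289 and 0.207), and COL3A1 passed with the 6 GS libraries alone (adjusted p = 0.0410).

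Of 26 collagen processing genes 2 fell, where 1.27% of all genes tested did. P3H2, which hydroxylates proline in collagen, stood at 31.6, 39.1 and 28.9 CPM in GS_80d, against 84.2, 88.1 and 113 CPM in GS_9d (-1.52 ± 0.22, adjusted p = 0.00868). FKBP10, a collagen chaperone, stood at 28.5, 43.2 and 46.2 CPM in GS_80d, against 121, 88.3 and 142 CPM in GS_9d (-1.57 ± 0.24, adjusted p = 0.0109). PXDN, peroxidasin, which crosslinks collagen IV, also fell, to 246, 217 and 259 CPM in GS_80d, against 637, 703 and 766 CPM in GS_9d (-1.54 ± 0.22, adjusted p = 0.00843). Every GS_80d library lay below every GS_9d library for these 3 genes, and all 3 were called whichever library was left out. PXDN was picked from the genes called in every fit without a GS library.

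Among 34 elastic fibre and matricellular genes 3 rose and 4 fell, with a median of -0.34. Over all genes tested 1.38% rose and 1.27% fell. LTBP2, a fibrillin-binding protein, rose to 36.5, 68.9 and 66.0 CPM in GS_80d, against 14.3, 6.36 and 12.3 CPM in GS_9d (2.37 ± 0.51, adjusted p = 0.0339). THBS1, thrombospondin, rose to 526, 523 and 720.4 CPM in GS_80d, against 225, 123 and 189 CPM in GS_9d (1.72 ± 0.35, adjusted p = 0.0275). EMILIN2 and FBN2, an elastic fibre glycoprotein and the fibrillin prominent in development, fell, with log2 differences of -1.69 ± 0.30 (adjusted p = 0.0168) and -1.43 ± 0.26 (adjusted p = 0.0174). MFAP5, a microfibril protein, fell to 55.8, 90.6 and 95.1 CPM in GS_80d, against 289.6, 161 and 509 CPM in GS_9d (-1.99 ± 0.41, adjusted p = 0.0270). PRELP, which anchors basement membranes, and SPARCL1, a matricellular protein, had 0.97 ± 0.21 and -0.99 ± 0.23 (adjusted p = 0.0358 and 0.0403). EMILIN3, a relative of EMILIN2 outside that list, stood at 2.98, 4.37 and 1.66 CPM in GS_80d, against 22.7, 14.8 and 23.0 CPM in GS_9d (-2.75 ± 0.52, adjusted p = 0.0199). EMILIN3 kept its call only without GS_9d replicate 2 among the fits without a GS library (adjusted p up to 0.0832 in the others). The list count was 0 in each fit without a GS library, except that 3 genes fell without GS_9d replicate 2.

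Of 24 matrix proteases and inhibitors 1 rose and 2 fell, where 1.38% and 1.27% of all genes tested did. ADAMTS1, a protease of proteoglycans, rose to 178, 163 and 233 CPM in GS_80d, against 42.6, 28.4 and 63.1 CPM in GS_9d (2.10 ± 0.35, adjusted p = 0.0139). MMP2, a gelatinase, fell to 673, 829.6 and 790.4 CPM in GS_80d, against 1726, 1252 and 1715 CPM in GS_9d (-1.03 ± 0.22, adjusted p = 0.0315), and TIMP4, a metalloprotease inhibitor found in fat, fell to 141, 168 and 105 CPM in GS_80d, against 300.4, 409.5 and 254 CPM in GS_9d (-1.22 ± 0.24, adjusted p = 0.0213). ADAMTS1 lost its call without GS_9d replicate 1 and without GS_80d replicate 3 (up to an adjusted p of 0.0579). MMP2 kept its call only without GS_9d replicate 2 and TIMP4 only without GS_9d replicate 3 among fits without a GS library (up to 0.141 and 0.0977 in the others).

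Some macrophage genes fell. Of 21 tested macrophage and complement genes 5 fell, 0 rose and 19 had negative differences, with a median of -1.03. Over all genes tested 1.27% fell. MARCO, a scavenger receptor, was at 0 in all 3 GS_80d libraries and at 9.74, 8.53 and 2.31 CPM in GS_9d, at least 108.59-fold lower against the same floor (adjusted p = 0.00285), and it remained past the threshold in every alternative. CD163, the haemoglobin scavenger receptor of resident macrophages, stood at 16.9, 16.6 and 39.7 CPM in GS_80d, against 70.4, 102 and 91.8 CPM in GS_9d (-1.85 ± 0.35, adjusted p = 0.0201). C1QA, a chain of complement C1q, stood at 35.7, 25.8 and 57.5 CPM in GS_80d, against 153, 162 and 140.2 CPM in GS_9d (-1.94 ± 0.43, adjusted p = 0.0381).

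C1QC, another C1q chain, and VSIG4, a complement receptor of resident macrophages, had log2 differences of -1.80 ± 0.41 and -1.71 ± 0.39 (adjusted p = 0.0399 and 0.0403). GS_80d replicate 3 was the highest of its group for CD163, C1QA, C1QC and VSIG4, but stayed below all GS_9d libraries. Apart from MARCO these calls were lost in 5 or 6 of the 6 fits without a GS library (adjusted p up to 0.163), so the list count there was 1, or 3 without GS_80d replicate 3. It was 2 without YK_9d replicate 1 or YK_9d replicate 2, and 1 without the 3 libraries with muscle transcripts. The summed share of the list was 0.0613% to 0.0787% in GS_80d and 0.130% to 0.169% in GS_9d. CSF1R and CD68, general macrophage markers, had -1.15 ± 0.35 and -0.96 ± 0.29 (adjusted p = 0.0965 and 0.0941). FCN2, a ficolin of the lectin complement pathway, fell to 319.8, 179 and 247 CPM in GS_80d, against 1329, 921 and 1433 CPM in GS_9d (-2.30 ± 0.35, adjusted p = 0.00953) and was called whichever library was left out. It was picked from the genes called in every fit without a GS library.

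Other cell-type lists held at most 1 call in a direction, where 2.65% of all genes tested were called. FLT1, a VEGF receptor, rose among 18 endothelial genes, at 158, 139 and 152 CPM in GS_80d, against 78.0, 53.1 and 57.4 CPM in GS_9d (1.25 ± 0.27, adjusted p = 0.0354). MYL9, a myosin light chain, fell among 20 smooth muscle and pericyte genes, to 54.9, 53.7 and 86.3 CPM in GS_80d, against 144, 169 and 141 CPM in GS_9d (-1.22 ± 0.22, adjusted p = 0.0168), while the summed share of that list was 0.222% to 0.270% in GS_80d and 0.176% to 0.429% in GS_9d. Positive differences were found for 14 of those 20 genes, with a median of 0.29. IRF4, a transcription factor of B and plasma cells that macrophages also use, fell to 1.80, 3.17 and 5.22 CPM in GS_80d, against 12.2, 17.2 and 21.0 CPM in GS_9d (-2.30 ± 0.49, adjusted p = 0.0336). It was the 1 call among 15 B and plasma cell genes, of which 8 had positive differences, with a median of 0.20. The summed share of the B and plasma cell list was 0.0121% to 0.0322% in GS_80d and 0.0247% to 0.0279% in GS_9d. GYPC, a membrane protein of red cells that other tissues also express, had -1.14 ± 0.25 (adjusted p = 0.0339), and TRPS1, a factor of hair follicles and stroma, had 1.93 ± 0.41 (adjusted p = 0.0326). FLT1, IRF4, GYPC and TRPS1 lost their calls when any GS library was left out (adjusted p up to 0.133), and MYL9 kept its call only without GS_80d replicate 3 or GS_9d replicate 3 (up to 0.0860 in the others).

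Of 21 progenitor and stromal markers 1 rose (SFRP1) and 1 fell (MFAP5). The lists of T and NK cells (24 genes), mast cells (7), neutrophils (8), class II antigen presentation (7), simple epithelium (16), Schwann cells (12) and skeletal muscle (22) held 0 calls, with 3, 0, 2, 1, 2, 5 and 0 genes at an unadjusted p under 0.05. DESeq2 called 2, 0, 1, 0, 2, 3 and 0, and 20% of all genes tested had an unadjusted p under 0.05. The median of the skeletal muscle list was -8.69, which became -7.50 once its 4 genes without counts in a group were placed at the floor, and its level was set by GS_9d replicate 3 as given above. KIT, the stem cell factor receptor, stood at 7.69, 10.04 and 5.42 CPM in GS_80d, against 9.25, 6.67 and 9.47 CPM in GS_9d (-0.13 ± 0.31, adjusted p = 0.856).

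Immediate early genes, which respond quickly to stimuli, were among those that rose. Of 25 tested 6 rose, 0 fell and 23 had positive differences, with a median of 1.38, the highest of the lists plotted. Over all genes tested 1.38% rose. NR4A1, an orphan nuclear receptor, stood at 419, 509 and 609 CPM in GS_80d, against 37.3, 6.02 and 39.7 CPM in GS_9d (4.21 ± 0.63, adjusted p = 0.0108). NR4A2, its relative, stood at 47.4, 52.2 and 33.2 CPM in GS_80d, against 10.6, 10.3 and 7.50 CPM in GS_9d (2.23 ± 0.31, adjusted p = 0.00843). ATF3, a stress-induced factor, stood at 65.3, 64.6 and 47.0 CPM in GS_80d, against 14.8, 5.90 and 15.8 CPM in GS_9d (2.28 ± 0.40, adjusted p = 0.0168). Every GS_80d library lay above every GS_9d library for these 3 genes.

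KLF6, a zinc finger factor, CCN2, a matricellular growth factor, and the cytokine gene IL6 also rose. KLF6 differed by 1.35 ± 0.21 (adjusted p = 0.0117), CCN2 by 1.84 ± 0.37 (adjusted p = 0.0243) and IL6 by 4.54 ± 0.95 (adjusted p = 0.0321). IL6 was low throughout, at 1.67, 11.7 and 4.38 CPM in GS_80d, against 0.105, 0.441 and 0.215 CPM in GS_9d, and uneven at 80 d. The summed share of the list was 0.387%, 0.696% and 0.270% in the GS_80d libraries, against 0.151%, 0.0846% and 0.171% in GS_9d. FOS and EGR1, the textbook members, had log2 differences of 2.44 ± 1.06 and 1.62 ± 0.83 and did not pass (adjusted p = 0.240 and 0.308). NR4A1, NR4A2 and KLF6 were called whichever library was left out, and the list count was 3 or 4 in the fits without a GS library and 3 without the 3 libraries with muscle transcripts, where KLF6 missed the threshold (adjusted p = 0.0560). ATF3 lost its call without GS_9d replicate 1 or either of GS_80d replicates 1 and 2 (up to 0.0542), IL6 in all such fits but the one without GS_80d replicate 1 (up to 0.104) and CCN2 in all 6 (up to 0.0970).

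Heat shock genes held 0 calls. Of 20 tested 0 passed, with 1 at an unadjusted p under 0.05 and 0 by DESeq2, and the median was 0.21. HSP70.2, the inducible chaperone of the HSP70 family, stood at 70.6, 111 and 67.0 CPM in GS_80d, against 66.4, 61.4 and 58.3 CPM in GS_9d (0.41 ± 0.31, adjusted p = 0.497), and its partner DNAJB1 at 104, 121 and 82.6 CPM in GS_80d, against 70.1, 88.2 and 72.6 CPM in GS_9d (0.41 ± 0.25, adjusted p = 0.382). Of 14 glucocorticoid-induced genes 1 rose, ERRFI1, a feedback inhibitor of EGF receptor signalling, at 87.5, 80.2 and 85.9 CPM in GS_80d, against 26.0, 20.5 and 32.7 CPM in GS_9d (1.68 ± 0.28, adjusted p = 0.0139). Adjusted p reached 0.0579 and the call was lost without GS_80d replicate 3 or either of GS_9d replicates 1 and 2. Lists of the endoplasmic reticulum stress response (20 genes) and the circadian clock (17 genes) held 0 calls, and 0 and 2 by DESeq2. An unadjusted p under 0.05 was found for 1 and 8 of them, against 20% of all genes tested.

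Chemokine and hormone-handling genes changed at a few members. Of 30 chemokines and receptors 3 rose, where 1.38% of all genes tested did. CCL4, a macrophage chemokine, stood at 8.80, 23.5 and 7.81 CPM in GS_80d, against 1.69, 2.93 and 1.27 CPM in GS_9d (2.76 ± 0.64, adjusted p = 0.0427). CCL19, a lymphoid chemokine, and ACKR1, the chemokine-binding receptor of venules, had log2 differences of 1.43 ± 0.31 and 1.09 ± 0.20 (adjusted p = 0.0326 and 0.0180). Of 33 interferon response genes 0 passed, with 3 lower by DESeq2. An unadjusted p under 0.05 was found for 5 of the 33, against 20% of all genes tested. The median of -1.02 came with libraries that were uneven at both ages. The median member stood 1.88 and 0.54 log2 units above its mean over the GS libraries in GS_9d replicates 1 and 2, but 1.18 below it (-1.18) in GS_9d replicate 3. In GS_80d it stood at -0.59, 0.38 and -0.85. EPSTI1, an interferon-induced gene outside the list, had the same order among the GS_9d libraries but not among the GS_80d libraries. It stood at 4.21, 3.34 and 4.08 CPM in GS_80d, against 61.0, 28.9 and 6.04 CPM in GS_9d (-3.04 ± 0.65, adjusted p = 0.0339).

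Of 25 genes for retinoids, vitamin D and steroids 3 rose and 0 fell, and CRABP2 and ALDH1A1 were among the 3. Over all genes tested 1.38% rose. CRABP2, which carries retinoic acid, stood at 10.6, 6.97 and 17.2 CPM in GS_80d, against 2.97, 2.43 and 2.87 CPM in GS_9d (2.07 ± 0.47, adjusted p = 0.0403). ALDH1A1, which makes retinoic acid, stood at 219, 156 and 189 CPM in GS_80d, against 77.6, 59.3 and 36.8 CPM in GS_9d (1.70 ± 0.40, adjusted p = 0.0462). The median was 0.75, which became 0.30 once 2 genes without counts in a group were placed at the floor. Both calls, and that of CCL4, were lost when any GS library was left out (adjusted p up to 0.187), and the list of 25 held 0 calls without YK_9d replicate 2 and 2 without YK_9d replicate 1. CCL19, ACKR1 and EPSTI1 lost theirs in 5, 4 and 5 of those fits (up to 0.120, 0.0815 and 0.128). CCL19 kept it only without GS_9d replicate 2, ACKR1 without GS_80d replicate 1 or GS_9d replicate 3, and EPSTI1 without GS_9d replicate 3. TSHR, the thyrotropin receptor, stood at 27.0, 17.1 and 17.4 CPM in GS_80d, against 11.1, 17.3 and 14.3 CPM in GS_9d (0.53 ± 0.38, adjusted p = 0.471), and of 12 thyroid hormone genes 0 passed, with 1 at an unadjusted p under 0.05 and 0 by DESeq2.

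Whether the age difference was particular to GS was asked by testing the difference between the age differences of GS and YK. Of 15425 genes 10 (0.0648%) passed, and 1693 (11%) had an unadjusted p under 0.05. In YK alone 186 genes (1.21%) passed for age. The test had low power, since in simulated data it recovered 13% of genes changed 4-fold and 0% of those changed 2-fold, against 62% and 5% for the GS age difference. For ACLY the age difference was 2.10 ± 0.24 in GS and -0.07 ± 0.23 in YK, a difference of 2.17 ± 0.32 (adjusted p = 0.0410). CLMP, an adhesion protein implicated in adipocyte maturation, differed by 1.61 ± 0.23 in GS and -1.02 ± 0.23 in YK (2.64 ± 0.32, adjusted p = 0.00956). For LBR, the lamin B receptor, which also has sterol reductase activity, the age difference was 1.83 ± 0.23 in GS and -0.59 ± 0.23 for YK (2.42 ± 0.33, adjusted p = 0.0202).

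The 7 others were lower in GS than in YK in their age difference. With age, HSP70.2 and DNAJB1 differed by 0.41 ± 0.31 and 0.41 ± 0.25 in GS against 5.42 ± 0.38 and 4.04 ± 0.28 in YK (-5.01 ± 0.47 and -3.62 ± 0.36, adjusted p = 0.00188 and 0.00217). MARCO, at 0 in every GS_80d library, stood at 2.49, 7.70 and 8.86 CPM in YK_80d, against 3.81, 5.61 and 3.51 CPM in YK_9d, and its age differences differed by a fitted -12.12, which depends on the prior count and is no bound (adjusted p = 0.00956). EPSTI1 differed by -3.04 ± 0.65 in GS and 3.04 ± 0.65 in YK (-6.09 ± 0.91, adjusted p = 0.0455). GNLY, granulysin of cytotoxic lymphocytes, differed by -2.13 ± 0.56 in GS and 3.31 ± 0.59 in YK (-5.45 ± 0.81, adjusted p = 0.0455). RASD1, a glucocorticoid-induced Ras protein, differed by -0.65 ± 0.34 in GS against 2.80 ± 0.36 in YK (-3.46 ± 0.50, adjusted p = 0.0329).

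RGS2, a regulator of G-protein signalling that was named after its values were seen, differed by -0.22 ± 0.25 in GS and 2.05 ± 0.26 in YK (-2.26 ± 0.36, adjusted p = 0.0493). HSP70.2, DNAJB1, MARCO and CLMP remained past the threshold whichever library was left out. The other 6 each lost the call without at least 3 of the 6 GS libraries (adjusted p up to 0.196), so 5 or 6 genes passed in 5 of those fits. Without GS_9d replicate 3, which holds the muscle transcripts, 46 passed, and without YK_80d replicate 1 90 passed. For SCD, FASN and ACACA the GS minus YK differences were 5.98 ± 1.13, 3.02 ± 0.74 and 2.35 ± 0.55, and these did not pass (adjusted p = 0.113, 0.185 and 0.180). By DESeq2 all 3 passed (adjusted p = 5.57e-05 for SCD, 0.00217 for FASN and 0.00406 for ACACA). DESeq2 made 43 false calls for this comparison in the simulated data, which were drawn with edgeR's own estimates of the spread. SCD also passed without the 3 libraries with muscle transcripts (0.0256) and ACACA without GS_9d replicate 2 (0.00625). The age difference in SCD in YK was 0.27 ± 0.74.

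**Figure D5:**
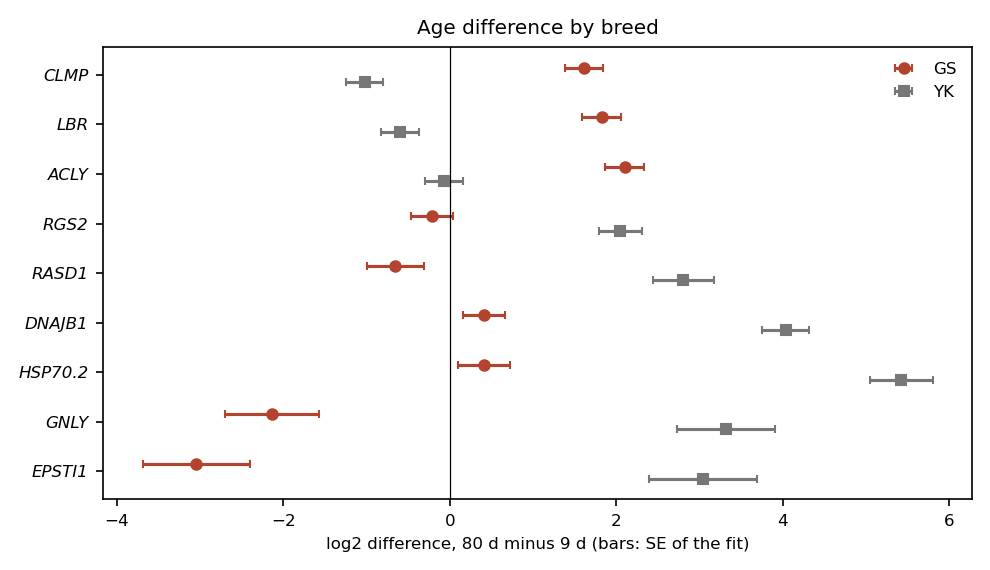
Log2 difference between 80 d and 9 d (horizontal axis) in GS and in YK for 9 of the 10 genes whose age difference differed between the breeds, with the SE of the fit as bars. CLMP, LBR and ACLY lie higher in GS, at 1.61 to 2.10, and the other 6 lie higher in YK, and MARCO is left out because GS_80d held 0 counts.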

How the data were processed

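Stranded RNA-seq libraries were made from total RNA of back fat, per the labels' protocols. The authors deposited 1 table of estimated counts per gene for the 12 libraries, unscaled between libraries. The aligner was not given in the sources used here, nor the counter. Pig gene identifiers stand beside the mouse build mm10 in the submitters' processing notes, so no coordinates are printed. The values are whole numbers, so no rounding was needed, but low values pile up at multiples of 3.74, so 1 fragment was taken as 3.74 units. The counts were tested as deposited, and division by that unit was an alternative. The 6 GS libraries totalled 52112636 to 58836088 units, and counting floors were set at 3 fragments.

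Of 24358 genes 15425 passed edgeR's filterByExpr (minimum count 10), and 12779 of these have a symbol. edgeR 4.0.16 in R 4.3.3 was run with TMM factors and a robust quasi-likelihood fit of 4 groups over all 12 libraries, which share 1 estimate of the spread. A common dispersion of 0.267 on 8 residual degrees of freedom resulted. The SE is the absolute log2 difference over the square root of F, and genes with an adjusted p below 0.05 were called. DESeq2 1.42.0, limma 3.58.1 (voom), other scalings and filters, a replicate block and leaving out libraries were alternatives. The scripts were tested on simulated data, drawn with edgeR's own estimates of the spread, a setting that may favour edgeR.

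Genes are named if past the threshold with a mean log2 CPM of at least 2 and groups that do not overlap (the 12 largest changes in each direction, 6 each for the breed difference), as up to 5 members a list, or as fixed names. Genes named beyond this rule, among them PGD, FADS1, FADS2, PNPLA2, LIPE, NR1H3, MLXIPL, CSF1R, CD68, FOS, EGR1, PRELP and SPARCL1, were chosen after their values were seen. The 53 lists and all members were chosen with earlier results of these data known. Some genes that the rule names are not reported here. Promoters, IGF2, MKI67 and HMGA2 are not analysed here.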

Additional observations from a re-analysis of the deposited data

Results flagged for a closer look

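In 10 genes the difference between 80 d and 9 d itself differed between GS and YK, by edgeR's quasi-likelihood test of the interaction with Benjamini-Hochberg adjustment. The values are log2 differences of GS minus YK. They were -5.01 for HSP70.2 and -3.62 for DNAJB1, which passed under all 21 alternatives, and 2.64 for CLMP, 2.42 for LBR and 2.17 for ACLY. They were -3.46 for RASD1, -6.09 for EPSTI1, -5.45 for GNLY and -2.26 for RGS2. The fitted -12.12 for MARCO depends on the prior count, since GS_80d held 0 counts.

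For HSP70.2 the libraries stood at 70.6, 111 and 67.0 CPM in GS_80d, against 66.4, 61.4 and 58.3 CPM in GS_9d. In YK they stood at 4213, 3062 and 1760.2 CPM in YK_80d, against 61.4, 63.7 and 85.8 CPM in YK_9d, so the 3 YK_80d libraries were above all others. For DNAJB1 the YK libraries stood at 1722, 1641 and 1097 CPM in YK_80d, against 73.3, 86.7 and 112 CPM in YK_9d. CLMP stood at 242, 248 and 375 CPM in GS_80d, against 106, 105 and 72.6 CPM in GS_9d, and at 57.6, 53.6 and 53.0 CPM in YK_80d, against 102, 101 and 131 CPM in YK_9d, with opposite order of the ages in the breeds. With 3 libraries a group, single libraries were not tested for standing apart.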

How the results depend on the processing

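The GS age difference called 409 genes (213 higher, 196 lower) with all 12 libraries. Fitting the 6 GS libraries alone gave 1055 (544 and 511), DESeq2 gave 1465 (704 and 761) and leaving out the 3 libraries with muscle transcripts gave 150 (86 and 64). In simulated data of 15425 genes with 3 libraries a group, edgeR made 2 false calls for this comparison and DESeq2 42. Those data were drawn with edgeR's own estimates of the spread, so they do not settle which count is nearer the truth. Leaving out each of the 12 libraries in turn gave 78 to 532 calls, 42 to 277 of them higher and 32 to 257 lower. RLE factors, upper-quartile factors, no filter, a stricter filter, division by the unit of 1 fragment and limma-voom gave 410, 423, 378, 504, 467 and 503. The age by breed difference called 10 genes, 367 by DESeq2, 6 by limma-voom and 5 to 90 with 1 library left out. It called 15 once the libraries holding muscle transcripts were dropped.

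With the replicate number as a block, 320 genes passed for GS age, 283 of them shared, and 2 for age by breed. The deviations of same-numbered libraries had correlations of 0.0296, -0.0257 and 0.0126 in GS and -0.122, 0.147 and 0.0694 in YK. Not every GS_80d library correlated best with the GS_9d library of its own number. With 3 libraries a group, these values cannot tell whether same-numbered libraries share an origin.

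Of 96 genes examined singly that passed, 50 lost the call without the libraries with muscle transcripts (adjusted p up to 0.135). Without a YK library, which bears on the spread, scaling and filter, 0 to 13 did (adjusted p up to 0.0626). Among these were GPAM, GPAT3, AGPAT4, PNPLA3, DLK1, GRB10, C1QA, C1QC, VSIG4, IL13RA2, HAL, BEX1, RPL28, CCL4, CRABP2 and ALDH1A1, by leaving out YK_80d replicate 1 or 2 or YK_9d replicate 1 or 2. Signs turned for uncalled genes only. Over the fits without 1 library, DGAT2 ran from -0.60 to 0.14, ADIPOQ from -0.21 to 0.31, LPL from -0.092 to 0.48, FABP4 from -0.50 to 0.072 and KIT from -0.35 to 0.085. ADIPOQ gave 0.016 by limma-voom. The cause was not tested. With 3 libraries a group, 2-fold changes were mostly out of reach, since 5% of simulated ones were recovered.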

Other observations

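Some of the steadiest changes lay outside the lists above. These genes were named after their values were seen, from the 43 called in every fit without a GS library. PID1, a protein known to dampen insulin signalling in adipocytes, stood at 37.6, 40.1 and 29.2 CPM in GS_80d, against 118, 106 and 107 CPM in GS_9d (-1.63 ± 0.24, adjusted p = 0.00921 in edgeR's quasi-likelihood test with Benjamini-Hochberg adjustment). GNAQ, the alpha subunit of a G protein that couples receptors to phospholipase C, stood at 47.5, 48.7 and 50.2 CPM in GS_80d, against 16.3, 17.3 and 18.2 CPM in GS_9d (1.50 ± 0.22, adjusted p = 0.00868). TNS1, tensin, a protein of focal adhesions, stood at 363, 316 and 227 CPM in GS_80d, against 85.3, 82.6 and 45.1 CPM in GS_9d (2.09 ± 0.30, adjusted p = 0.00843). PARD3B, a cell polarity protein, stood at 26.4, 24.4 and 26.0 CPM in GS_80d, against 7.98, 7.18 and 7.05 CPM in GS_9d (1.79 ± 0.24, adjusted p = 0.00843). CCDC8, a growth gene of the 3M complex in humans, stood at 16.7, 16.0 and 13.9 CPM in GS_80d, against 49.1, 38.6 and 42.6 CPM in GS_9d (-1.48 ± 0.19, adjusted p = 0.00742). The groups did not overlap for these 5 genes, as was so for all 409 genes called.

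Positional and catabolic genes held 0 calls. Of 26 Hox genes, which record body position, 1 had an unadjusted p under 0.05, and so did 1 of 20 genes of branched-chain amino acid breakdown and 1 of 13 mitochondrially encoded genes. Mitochondrially encoded transcripts took 9.27% to 12.6% of the counts in GS_80d and 8.91% to 10.1% in GS_9d. The erythroid list took 0.0256% to 0.0314% in GS_80d and 0.0493% to 0.0507% in GS_9d. Among its 10 tested genes 5 had positive and 5 had negative differences, with a median of -0.33. Its 1 call was GYPC, given above, so the summed share does not show a fall across the list.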
